A study of Mus musculus with 4 samples.

Results

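The creatine kinases *Ckm*, *Ckb* and *Ckmt2*, the adenylate kinases *Ak1*, *Ak3* and *Ak4*, the creatine-synthesis enzyme *Gamt* and the oxygen-storing globin *Mb* were followed in mouse hearts at postnatal day 7 (P7). The genes were chosen by name, by matching the Entrez identifiers of the count table to symbols, and all 8 were among its 24454 genes. RNA-seq was performed on hearts, with 2 libraries of control hearts (Ctrl, WH7 and WH8) and 2 libraries of hearts that overexpressed *miR-128* (miR-128OE, WH9 and WH10). Ctrl mice carried the *miR-128*TetRE allele alone, and miR-128OE mice carried it together with α-MHC-tTA, so that both groups shared the responder allele. In this Tet-off system the α-MHC promoter limits the activator to cardiomyocytes (CMs), and doxycycline in the diet represses it. The Dox schedule behind the P7 hearts is not given in the sources used here. Nothing states whether 2 libraries of a group came from separate animals, so the p-values measure only the spread between these libraries, which may be technical.

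A beating heart stores little ATP and remakes it continuously. Mitochondrial creatine kinase passes a phosphate from newly made ATP to creatine, phosphocreatine carries it through the cell, and cytosolic creatine kinase at the myofibrils and pumps returns it to ADP. Adenylate kinases join 2 ADP into ATP and AMP and so recover a further phosphate and report the energy state through AMP, and myoglobin stores oxygen and eases its passage to the mitochondria. As the heart matures after birth, muscle-type and mitochondrial creatine kinase are known to rise as the brain-type enzyme recedes.

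The transgene of the miR-128OE hearts gives rise to mature miR-128-3p. Its sequence (RefSeq, GRCm38.p6, chr1:128202404-128202424, plus strand) is shown with the seed, bases 2 to 8, in capitals, since the matches searched below are the complement of these letters.
mmu-miR-128-3p: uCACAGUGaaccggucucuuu
Mature miR-128 was not measured in these libraries. Of its precursors, *Mir128-2* had 0 counts in both Ctrl libraries and 2 and 10 counts in WH9 and WH10, and *Mir128-1* had 0 in all 4, so the precursors give only a thin check of the labels.

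The libraries held 8096870 to 14359838 counts, with the lowest total in WH8. Counts were scaled by TMM (factors 0.957 to 1.04) and are given as normalized counts at the mean library size. A gene was called changed at an adjusted p-value under 0.05, from the quasi-likelihood test of edgeR adjusted by Benjamini and Hochberg over 14266 tested genes. Of these, 2347 were higher and 2143 lower in miR-128OE hearts, 31.5% in all. With plain total counts in place of TMM the split was 1611 higher and 2948 lower, and the median over all genes, on the log2 scale, moved from −0.01 to −0.11. The condition coincided with sex, since *Xist* counts were 14543 and 11339 for Ctrl against 94 and 132 for miR-128OE, and *Ddx3y* counts were 13 and 7 against 1442 and 1768. The α-MHC-tTA activator, carried by miR-128OE mice alone, coincided with the condition as well. Effects of sex, of the activator and of *miR-128* therefore cannot be told apart here. In bulk hearts, fewer cells of a type and less RNA per cell cannot be told apart either.

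All 8 genes passed the filter on low counts. Of these, 6 were higher in miR-128OE hearts, *Ckm*, *Ckb*, *Ckmt2*, *Ak1*, *Ak3* and *Mb*, against 16.5% of all tested genes called higher. None of the 8 was called lower, against 15.0% of all tested genes, and *Ak4* and *Gamt* did not pass the test. Neither of these gave an unadjusted p-value under 0.05 either (0.747 and 0.403). On the log2 scale the median fold change of the 8 genes was 0.65, against −0.01 over all tested genes. In 7 of the 8, all but *Ak4*, both miR-128OE libraries lay above both Ctrl libraries, a pattern that 33.7% of all tested genes showed, while 34.4% showed the reverse. Without WH9 or without WH10, fewer of all tested genes were called, and *Ckm* and *Ak3* were among those that missed the threshold. Their log2 fold changes were then 0.44 and 0.43 for *Ckm* and 0.31 and 0.35 for *Ak3*.

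**Figure D1:**
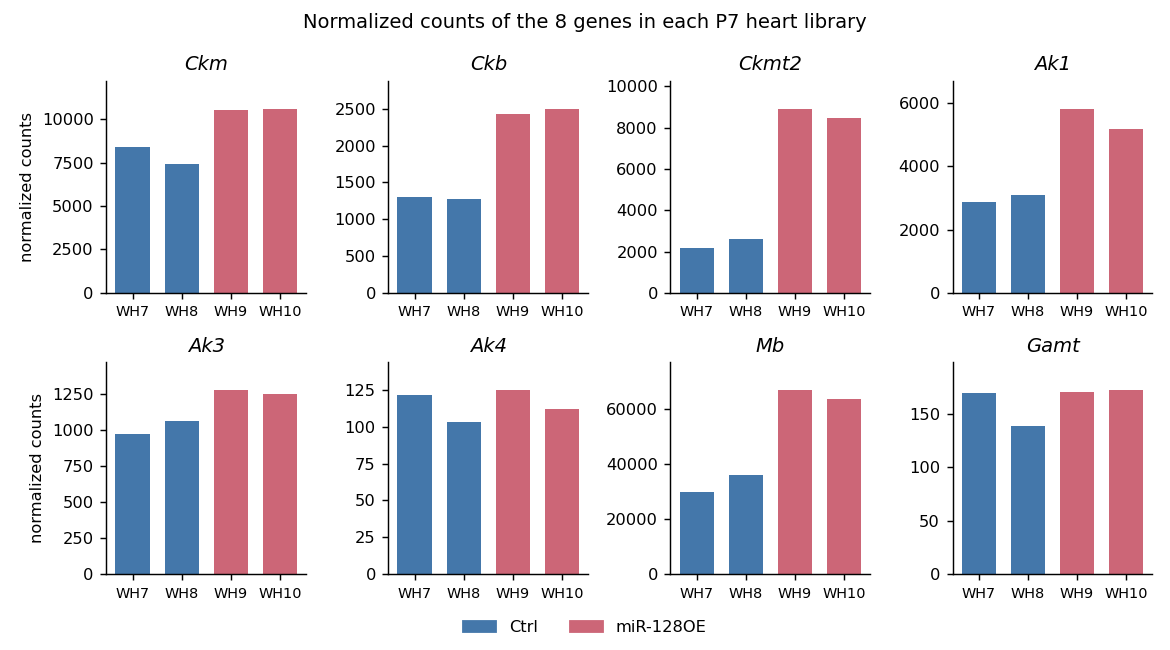
Normalized counts (vertical axes, each from 0) of the 8 genes in the 4 P7 heart libraries, with 1 bar per library, Ctrl in blue and miR-128OE in red. *Ckmt2* shows the widest step between groups, from 2177 and 2627 to 8925 and 8462, while the bars of *Ak4* overlap.

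*Ckmt2* encodes the sarcomeric mitochondrial creatine kinase, which sits between the mitochondrial membranes and loads phosphate onto creatine. The gene lies on chromosome 13 (91853387 to 91876885, GRCm38). It had 2177 and 2627 normalized counts in WH7 and WH8 and 8925 and 8462 in WH9 and WH10, or 2402 ± 318 in Ctrl and 8693 ± 327 in miR-128OE hearts (SD, n = 2 each). The lowest miR-128OE library was thus far above the highest Ctrl library. The log2 fold change was 1.86 (standard error 0.11, 95% interval 1.62 to 2.10, edgeR adjusted p = 8.86e-06), a 3.62-fold higher level. By size of the fold change *Ckmt2* ranked 73 of 14266 genes, the highest rank of the 8. Its closest relative, the ubiquitous mitochondrial creatine kinase *Ckmt1*, had between 8 and 14 counts in each library and did not pass the test (log2 fold change −0.41, 95% interval −1.53 to 0.71, edgeR adjusted p = 0.567). The coding sequences of both are 72.7% identical over the aligned bases, with a longest identical stretch of 39 bases, and how reads that fit both were counted is not given in the sources used here.

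*Ckb* encodes the brain-type cytosolic creatine kinase, the form that is prominent in the embryonic heart and in non-muscle cells. The gene is on chromosome 12 (111669361 to 111672338). Its normalized counts were 1304 and 1272 in Ctrl and 2426 and 2503 in miR-128OE libraries, with means of 1288 ± 22.7 and 2464 ± 54.7 (SD, n = 2 each). The groups stood well apart and each was tight. On the log2 scale the fold change was 0.94 (standard error 0.08, 95% interval 0.76 to 1.11, edgeR adjusted p = 7.09e-05), and the gene ranked 393 by fold change.

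*Ckm* encodes the muscle-type cytosolic creatine kinase, which is bound in part to the M line of the sarcomere. It lies on chromosome 7 (19404776 to 19422841). It had 8379 and 7449.8 normalized counts in Ctrl and 10511 and 10614 in miR-128OE libraries, or 7914 ± 657 and 10562 ± 72.7 (SD, n = 2 each). The groups did not overlap, but the step was smaller than for *Ckb* and *Ckmt2*. The log2 fold change was 0.42 (standard error 0.09, 95% interval 0.21 to 0.62, edgeR adjusted p = 0.00827), and the gene ranked 2164. *Ckm* missed the threshold without WH9 and without WH10, at fold changes of 0.44 and 0.43 on the log2 scale. Fewer of all tested genes were called in these settings too. Exons annotated as *A930016O22Rik* on the opposite strand share 15.5% of the exon bases of *Ckm*. The handling of strand in the counting is not given in the sources used here, so reads there cannot be told apart.

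The muscle-to-brain isoenzyme balance was compared as the ratio of *Ckm* to *Ckb* in each library, with both counts divided by gene length, which does not depend on the scaling of the library. This ratio was 6.39 in WH7 and 5.82 in WH8, and 4.31 in WH9 and 4.21 in WH10. Both miR-128OE libraries were below both Ctrl libraries, with means of 4.26 ± 0.0652 against 6.10 ± 0.399 (SD, n = 2 each). The ratio in miR-128OE hearts was 0.699 of that in Ctrl hearts, a log2 difference of −0.52. In the exact two-sided permutation test p was 0.333, the smallest value that 6 arrangements of the 4 libraries allow, so this design cannot pass 0.05 for a single ratio. *Ckm* remained the more abundant of the pair in every library. The coding sequences of *Ckm* and *Ckb* are 1146 bases each and 76.4% identical over the aligned bases and share no identical stretch longer than 20 bases.

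Levels were next set side by side within the family as TMM-scaled CPM and per kilobase (CPM per kb), with the length of all merged exons. *Ckm* was at 244 and 217 in Ctrl and 306 and 309 in miR-128OE libraries, and *Ckmt2* was at 124 and 150 and then at 510.1 and 484. *Ckb* was at 38.3 and 37.3 and then at 71.2 and 73.4. On this scale *Ckmt2* lay below *Ckm* in both Ctrl libraries and above it in both miR-128OE libraries. The order in miR-128OE hearts depended on the length, since the annotated exons of *Ckm* cover 2913 bases of which 1146 are coding. Per kilobase of coding sequence, a scale chosen after the data were seen, *Ckm* stayed above *Ckmt2* in all 4 libraries. The ratio of *Ckm* to *Ckmt2* was then 4.23 and 3.12 in Ctrl and 1.29 and 1.38 in miR-128OE libraries, against 1.96 and 1.45 and then 0.601 and 0.640 by merged exons. The ratio was lower in both miR-128OE libraries than in both Ctrl libraries, and the length, a constant factor, has no bearing on that order.

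**Figure D2:**
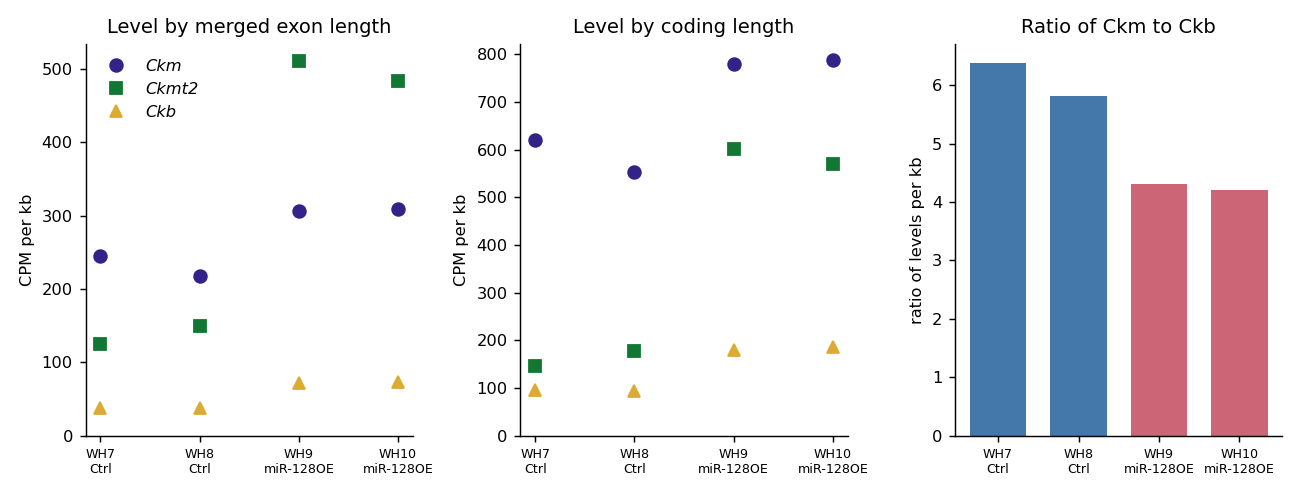
Levels of *Ckm*, *Ckmt2* and *Ckb* in CPM per kb in each library, by merged exon length (left) and by coding length (middle), and the ratio of *Ckm* to *Ckb* in each library (right; blue bars Ctrl, red bars miR-128OE). *Ckmt2* passes *Ckm* in WH9 and WH10 by merged exons but not by coding length, and the ratio falls from 6.39 and 5.82 to 4.31 and 4.21.

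The share of each isoenzyme in the summed creatine kinase level moved accordingly. By merged exons *Ckm* made up 56.8% ± 4.48 of the sum in Ctrl and 35.1% ± 0.845 in miR-128OE hearts, and *Ckmt2* made up 33.8% ± 4.62 and 56.6% ± 1.16 (SD, n = 2 each). By coding length *Ckm* made up 69.4% ± 3.38 and 50.4% ± 0.765, and *Ckmt2* 19.2% ± 3.20 and 37.8% ± 1.11 (SD, n = 2 each). The smaller *Ckm* share is thus found at a higher *Ckm* level, since *Ckmt2* was higher by more. *Ckb* held 9.30% ± 0.126 and 8.24% ± 0.325 by merged exons but 11.3% ± 0.189 and 11.8% ± 0.359 by coding length (SD, n = 2 each), so that its share had no direction that held for both lengths. The summed level of the family was 407 and 405 in Ctrl and 888 and 867 in miR-128OE libraries by merged exons.

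Creatine reaches CMs mostly by uptake, and the body makes it by 2 enzymes, *Gatm* and then *Gamt*, mainly in the kidney and liver. *Gamt* (chromosome 10, 80258151 to 80261012), the guanidinoacetate methyltransferase of the last step, had 170.1 and 139 normalized counts in Ctrl and 170.3 and 172 in miR-128OE libraries. The lower miR-128OE value lay just above the higher Ctrl value. Its log2 fold change was 0.14 (95% interval −0.22 to 0.49, edgeR adjusted p = 0.537), and the sign turned to −0.01 with an offset for GC content and length. *Gatm*, the first enzyme, had a log2 fold change of −0.10 (95% interval −0.59 to 0.38, edgeR adjusted p = 0.746). The creatine transporter *Slc6a8* was higher, with 878 and 1067 normalized counts in Ctrl and 1598 and 1596 in miR-128OE libraries and a log2 fold change of 0.72 (standard error 0.10, edgeR adjusted p = 0.000877). It lies on the X chromosome, and the part of sex in its change was not tested. Of the 7 genes of creatine kinases and creatine supply, 4 were thus higher, 0 were lower and 3 did not pass, with a median log2 fold change of 0.42. Over all tested genes, 16.5% were called higher and 15.0% lower.

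**Figure D3:**
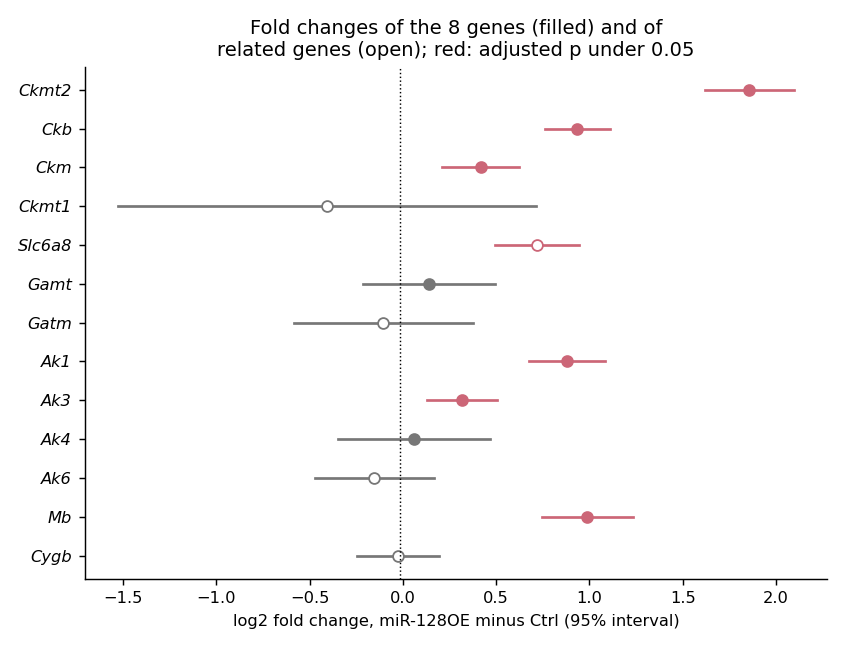
Log2 fold changes of miR-128OE over Ctrl (points) with 95% intervals (lines) for the 8 genes (filled) and for other tested genes of the creatine kinase, creatine supply, adenylate kinase and globin lists (open), in red where the adjusted p was under 0.05; the dotted line marks the median of all tested genes, −0.01. *Ckmt2* at 1.86 lies apart from *Ckb*, *Ak1* and *Mb*, which lie between 0.88 and 0.99.

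*Ak1* encodes the main cytosolic adenylate kinase of striated muscle (chromosome 2, 32621758 to 32635058). It had 2881 and 3101 normalized counts in Ctrl and 5826 and 5168 in miR-128OE libraries, with means of 2991 ± 156 and 5497 ± 465 (SD, n = 2 each). The groups were apart by several times the spread of either. On the log2 scale the fold change was 0.88 (standard error 0.09, 95% interval 0.67 to 1.08, edgeR adjusted p = 0.000218), with a rank of 480.

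*Ak3* encodes the GTP-dependent adenylate kinase of the mitochondrial matrix, which recovers AMP made there (chromosome 19, 29020833 to 29047961). It had 972 and 1066 normalized counts in Ctrl and 1280.2 and 1253 in miR-128OE libraries, or 1019 ± 66.2 and 1267 ± 19.1 (SD, n = 2 each). The groups did not overlap, and the step was the smallest of the 6 genes called. The log2 fold change was 0.32 (standard error 0.08, 95% interval 0.13 to 0.50, edgeR adjusted p = 0.0187). The adjusted p was 0.145 without WH9, 0.0947 without WH10 and 0.0711 with total counts. Exons of *Cdc37l1* on the opposite strand share 13.8% of the exon bases of *Ak3*, and *Cdc37l1* was itself at 101 and 111 CPM in Ctrl and 131 and 135 CPM in miR-128OE libraries, so with counting on strand not stated its part in the *Ak3* counts was not tested.

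*Ak4* encodes a second matrix protein of the family, known as responsive to low oxygen and with little activity of its own (chromosome 4, 101419277 to 101466995). Its normalized counts were 122 and 103 in Ctrl and 125 and 112 in miR-128OE libraries, and the groups overlapped. Its log2 fold change was 0.06 (95% interval −0.35 to 0.47, edgeR adjusted p = 0.829), an interval that includes the change seen in *Ak3*, at a depth of 73 to 133 counts per library. Its sign turned to −0.04 with total counts and without WH8, and to −0.0029 without WH9.

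Other adenylate kinases were read from a list, to be set beside the 16.5% of all tested genes called higher and the 15.0% called lower. *Ak6*, a nuclear member, did not pass the test, with a log2 fold change of −0.15 (95% interval −0.47 to 0.16, edgeR adjusted p = 0.439). *Ak5*, *Ak7* and *Ak8* had 0 to 9 counts per library and were below the filter, and *Ak9* was not analysed here. Of the 4 tested genes of the list, 2 were thus higher and 0 lower (median 0.19 on the log2 scale), and 1 was called with total counts. *Ak3* also missed the threshold without WH9 or without WH10, where fewer of all tested genes were called. The ratio of *Ak1* to *Ak3* by merged exons was 3.57 and 3.50 in Ctrl and 5.48 and 4.96 in miR-128OE libraries. *Ak1* made up 76.7% ± 0.0067 of the summed level of *Ak1*, *Ak3* and *Ak4* in Ctrl and 83.1% ± 0.929 in miR-128OE hearts (SD, n = 2 each), and 74.0% and 81.0% by coding length.

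Matches to the miR-128-3p seed were looked for in the longest annotated coding-transcript 3′UTR of each gene (GENCODE M21), as CACTGTG, the complement of the seed, or ACTGTGA, the complement of bases 2 to 7 followed by A. The 3′UTRs of *Ckm* (1455 bases), *Ckb* (202), *Ckmt2* (142), *Ak1* (1349), *Mb* (439) and *Gamt* (166) held 0 matches, while those of *Ak3* (1993) and *Ak4* (3328) held some, against 31.0% of 13463 tested genes with a 3′UTR. *Ak3* held 2 separate matches and *Ak4* held 1 place that fits both forms. Shorter matches to the seed and other 3′UTRs of these genes were not searched. Each place is shown on the transcribed strand with 11 bases on either side and the CACTGTG match in capitals. No other match of either form was found in the 3′UTRs searched for the 8 genes.
Ak3 first site, chr19:29021770-29021798, minus strand: agtgctgggatCACTGTGtgctaccactt
Ak3 second site, chr19:29020919-29020947, minus strand: ggtgatctcagCACTGTGgctgttgccct
Ak4 site, chr4:101466730-101466758, plus strand: ggatggcatttCACTGTGatcccccaagt
Of the genes with a match, *Ak3* was higher in miR-128OE hearts (0.32 on the log2 scale) and *Ak4* did not pass the test (0.06). A match is a description of the sequence and not a site of action.

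*Mb* encodes myoglobin (chromosome 15, 77015487 to 77050670) and was the most abundant of the 8, ranking 11 of 14266 genes by mean log2 CPM. It had 29813 and 35923 normalized counts in Ctrl and 66863 and 63607 in miR-128OE libraries, or 32868 ± 4320.45 and 65235 ± 2302 (SD, n = 2 each). The lowest miR-128OE library was well above the highest Ctrl library. The log2 fold change was 0.99 (standard error 0.11, 95% interval 0.75 to 1.23, edgeR adjusted p = 0.000284), a 1.98-fold higher level. The other globins of non-red cells were not called. Cytoglobin, *Cygb*, an oxygen-binding globin of fibroblasts and other cells, had a log2 fold change of −0.03 (95% interval −0.25 to 0.19, edgeR adjusted p = 0.856), and neuroglobin, *Ngb*, had 3 to 7 counts per library and was not tested. Of the 2 tested globins 1 was therefore higher, against 16.5% of all tested genes. The ratio of *Mb* to *Ckm* by merged exons was 6.95 and 9.41 in Ctrl and 12.4 and 11.7 in miR-128OE libraries. Exons of *Gm49540* and *Apol6* on the opposite strand share 27.6% and 4.29% of the *Mb* exon bases. *Apol6* itself was at 0.841 to 1.56 CPM, against 2532 to 5679 CPM for *Mb*.

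By merged exons the levels in Ctrl hearts ran from *Mb* (1871 CPM per kb) through *Ckm* (231), *Ckmt2* (137), *Ak1* (98.0), *Ckb* (37.8), *Ak3* (27.7) and *Gamt* (9.08) to *Ak4* (2.05). In miR-128OE hearts the order was *Mb* (3714), *Ckmt2* (497), *Ckm* (308), *Ak1* (180.1), *Ckb* (72.3), *Ak3* (34.5), *Gamt* (10.1) and *Ak4* (2.16). In both groups no neighbouring pair of the 8 overlapped between libraries on this scale. By coding length *Ak1* moved up, to 401 in Ctrl and 738 in miR-128OE hearts, next below *Ckm* at 587 and 783. *Ckm* and *Ak1* then overlapped in miR-128OE hearts, at 779 and 787 against 782 and 693. *Ckb* at 95.5 fell below *Ak3* at 127 in Ctrl hearts and stood above it, at 183 against 157, in miR-128OE hearts.

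Promoter windows from 250 bases before to 50 bases after each annotated start (RefSeq, GRCm38) were searched on both strands for the E-box CANNTG, the TATA element TATAAA, the GC box GGGCGG, the estrogen-related receptor element TCAAGGTCA, the NRF1 site, the MEF2 site and the CArG box. Such elements are known from promoters of striated muscle and mitochondrial genes. Among the 8 genes a MEF2 site was found in the window of *Ckb* and in 1 of the 4 windows of *Ak1*, against 3.19% of 32851 windows in all. The windows of *Ckm*, *Ckmt2*, *Ak3*, *Ak4*, *Mb* and *Gamt* held 0 such sites. Their log2 fold changes ran from 0.06 (*Ak4*) to 1.86 (*Ckmt2*), some below and some above those of *Ckb* and *Ak1* (0.94 and 0.88). Whether these sites had a part in any change was not tested. Both runs are shown with the match in capitals and with 10 bases on either side, because they are alike.
Ckb, chr12:111672348-111672377, minus strand, −29 to −20: aatgaatgggCTATAAATAGccgccaatgg
Ak1, chr2:32625447-32625476, plus strand, 20 to 29: gctgacagccTTATAAATAGtcgcctttgc
Both runs also contain TATAAA, which overlaps the MEF2 match and occurs in 13.6% of windows, and in *Ckb* it lies where a TATA box is usually placed. E-boxes, present in 72.3% of all windows, were found in at least 1 window of 7 of the 8 genes (not *Ckb*), and GC boxes, present in 35.7%, in *Ckmt2*, *Ak3*, *Ak4* and *Gamt*. Some genes have several windows (4 each for *Ak1* and *Ak4*), so counts of genes and shares of windows are unlike units. The receptor element (0.423% of windows), the NRF1 site (4.6%) and the CArG box (1.63%) were not found in these windows, from which nothing follows about the factors.

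Genes that work beside the 8 were read from lists by symbol. The counts of these lists stand beside 16.5% of all tested genes called higher and 15.0% called lower. Over all tested genes, fewer were called without WH9 or without WH10. Those shares therefore do not apply to counts with a library left out. Of 7 genes for the passage of adenine nucleotides and phosphate across the mitochondrial membranes, 6 were higher and 0 lower, and the median of their log2 fold changes was 0.70. The outer-membrane channel *Vdac1* had a log2 fold change of 0.82 (edgeR adjusted p = 0.000345). The phosphate carrier *Slc25a3* was at 0.73 (edgeR adjusted p = 0.000471). Of the ADP/ATP carriers, the X-linked *Slc25a5* was at 0.70 (edgeR adjusted p = 0.000544). The more abundant *Slc25a4* on chromosome 8 was at 0.54 (edgeR adjusted p = 0.00256), with 2289 to 3594 CPM against 280 to 497 CPM for *Slc25a5*. Fewer genes of this list were called without WH9. Of 12 other nucleotide kinases, 4 were higher, 1 was lower and 7 did not pass, with a median of 0.15. Adenosine kinase *Adk* was at 0.78 and the nucleoside diphosphate kinases *Nme3* and *Nme2* were at 0.75 and 0.58 on the log2 scale (edgeR adjusted p = 0.000529, 0.00234 and 0.00154). *Cmpk2*, a mitochondrial UMP-CMP kinase, was lower at −0.60 (edgeR adjusted p = 0.00915). This list held 3 calls without WH9 and 3 without WH10.

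AMP, the product of adenylate kinase, feeds AMP deaminase and AMP-activated kinase. Of 14 genes of these steps 12 were tested, of which 1 was higher, 2 were lower and 9 did not pass, with a median log2 fold change of −0.04. Over all tested genes, 31.5% were called in either direction. The catalytic subunit *Prkaa2* was higher at 0.47 (edgeR adjusted p = 0.00821), while the muscle regulatory subunit *Prkag3* was lower at −0.82 (edgeR adjusted p = 0.00532) and the deaminase *Ampd2* was lower at −0.39 (edgeR adjusted p = 0.0178). The counts of this list depended on single libraries, as did the number of calls over all tested genes.

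**Figure D4:**
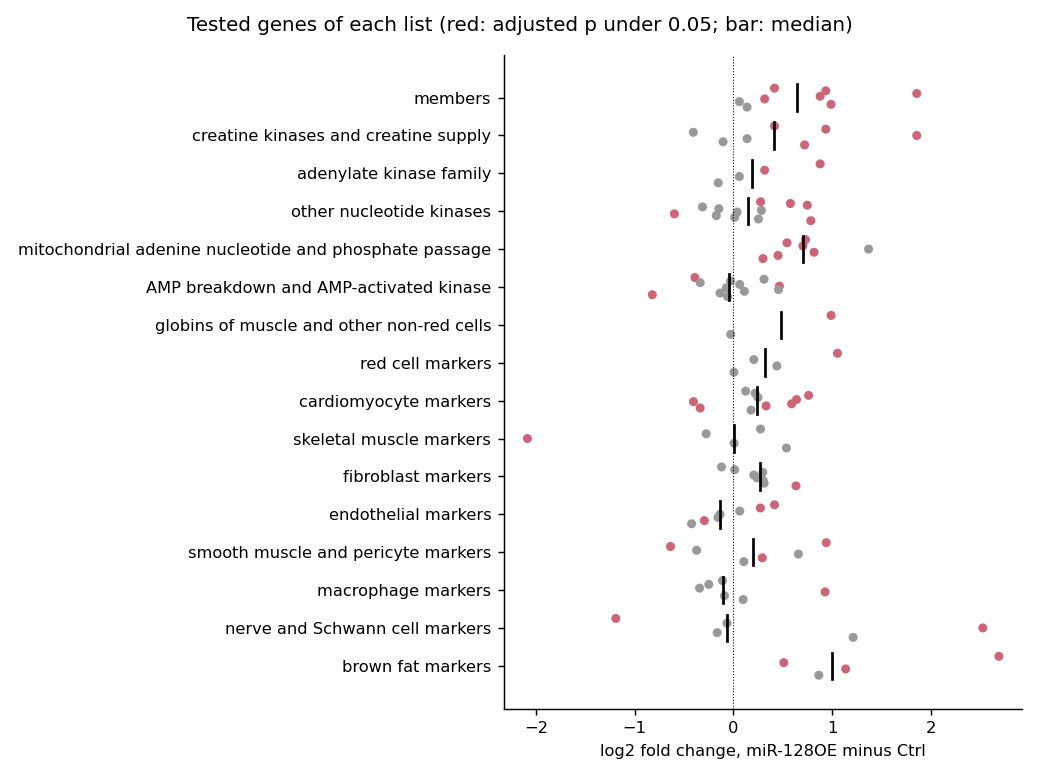
Log2 fold changes (miR-128OE minus Ctrl, horizontal axis) of the tested genes of each list, with 1 point per gene in red where the adjusted p was under 0.05 and a black bar at the median. The medians of the 8 genes (0.65) and of the mitochondrial passage list (0.70) lie to the right, and that of the AMP list (−0.04) lies near 0.

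Markers of the cells that a heart could hold were read in the same fit. All marker counts below stand beside 16.5% of all tested genes called higher and 15.0% called lower. Over all tested genes, fewer were called without WH9 or without WH10 and more without WH7 or without WH8. Those shares therefore do not apply to counts with a library left out. Of 10 CM markers 4 were higher and 2 lower, with a median of 0.23 on the log2 scale and a summed level of 51538 and 56493 CPM in Ctrl and 64523 and 63688 CPM in miR-128OE libraries. *Myh6*, *Myl2* and *Tnnt2*, the most abundant of them, were at 0.33, 0.25 and 0.12 on the log2 scale. Of these, *Myh6* passed the test (edgeR adjusted p = 0.0207). The other markers called higher were *Actn2* at 0.76, *Myl3* at 0.64 and *Pln* at 0.59 (edgeR adjusted p = 0.000586, 0.00201 and 0.0143). The 2 markers called lower were the calcium release channel *Ryr2* at −0.40 (edgeR adjusted p = 0.00655) and titin, *Ttn*, at −0.34 (edgeR adjusted p = 0.0228). The summed CM level was higher in both miR-128OE libraries, as *Ckmt2*, *Ckb*, *Ak1* and *Mb* were, although single markers differed in direction, and its part in their changes was not tested. That list held 2 calls without WH9 and 3 without WH10.

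Skeletal muscle also expresses *Ckm*, *Ak1* and *Mb*. Its adult myosins *Myh1*, *Myh2* and *Myh4* had 0 to 4 counts per library and *Myod1* had 0 in all. Such low counts did not extend to the myosin *Myh8* or to *Neb*. From WH7 to WH10, *Myh8* was counted 92, 14, 82 and 64 times, and *Neb* 77, 51, 115 and 111 times. Neither passed the test, at 0.27 and 0.54 on the log2 scale (edgeR adjusted p = 0.697 and 0.0780). The 12 markers summed to 24.2 and 15.4 CPM in Ctrl and 22.0 and 18.3 CPM in miR-128OE libraries. Of 5 tested, 1 (*Tnni2*) was lower, with 64 and 20 counts against 11 and 12, and 0 were called without WH9 or WH10. Brown fat, which also expresses *Ckb* and *Slc2a4*, showed 3 of 4 tested markers higher and a summed level of 33.2 and 33.4 CPM in Ctrl and 71.4 and 54.3 CPM in miR-128OE libraries. Its defining gene *Ucp1* counts were 56 and 3 for Ctrl against 253 and 189 for miR-128OE (log2 fold change 2.69, edgeR adjusted p = 0.00418). The part of such tissue in the *Ckb* counts was not tested. Without WH7 or without WH9 1 brown fat marker was called. For red cells, all 6 haemoglobin genes were listed at 0 counts in every library. How reads with several matches were counted is not given in the sources used here, so these zeros do not show that red cells were absent. Of the other 4 red cell markers tested, 1 (*Alas2*, X-linked) was higher, with a summed level of 45.6 and 32.9 CPM in Ctrl and 79.4 and 72.3 CPM in miR-128OE libraries.

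For the other cell types the summed levels of Ctrl and miR-128OE libraries were as follows. Fibroblast markers summed to 9950.1 and 6464 and then to 8764 and 9497 CPM, with 1 of 8 higher and 0 lower and a median log2 fold change of 0.27 (8 called without WH7, 3 without WH8 and 0 without WH9 or WH10). Endothelial markers summed to 1461 and 1446 and then to 1617 and 1526 CPM, with 2 of 7 higher and 1 lower (0 called without WH9). The endothelial median was −0.14, against the direction of the sum, as *Pecam1* and *Cdh5* were higher while *Emcn* was lower (0.42, 0.27 and −0.29 on the log2 scale). Smooth muscle and pericyte markers summed to 1844 and 1685 and then to 2203 and 2541 CPM, with 2 of 6 higher and 1 lower and a median of 0.20. Most of the step in this sum came from *Acta2*, at 627 and 579 and then at 1060 and 1253 CPM. *Rgs5* was also higher (0.29 on the log2 scale), while *Myh11* was lower (−0.64, edgeR adjusted p = 0.0359). The fibroblast sums of the groups overlapped. Macrophage markers summed to 84.7 and 62.8 and then to 71.5 and 71.7 CPM, with 1 of 6 higher and a median of −0.10, and nerve and Schwann cell markers summed to 40.4 and 40.6 and then to 29.5 and 28.4 CPM, with 1 of 5 higher and 1 lower and a median of −0.07. The macrophage call was made in 0 genes without WH7, WH9 or WH10 and in 2 genes without WH8.

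Genes with the profile most like *Ckm* and most like *Ckb* over the 4 libraries were sought among 5909 genes at an average of 5 or more in log2 CPM, by the Euclidean distance between mean-centred log2 CPM values. Nearest to *Ckm* were *Cnn3*, a calponin (distance 0.0218), *Arpc5l*, a subunit of the actin-nucleating Arp2/3 complex (0.0246), and *Marchf2*, a membrane ubiquitin ligase (0.0275). Nearest to *Ckb* were *Slc2a4*, the insulin-responsive glucose transporter of muscle and fat (0.0394), *Fbxl22*, an F-box protein of the sarcomere (0.0759), and *Rnf11*, a RING finger protein (0.0800). With 4 libraries in 2 groups many genes share such a profile, and likeness here says nothing of shared control.

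**Figure D5:**
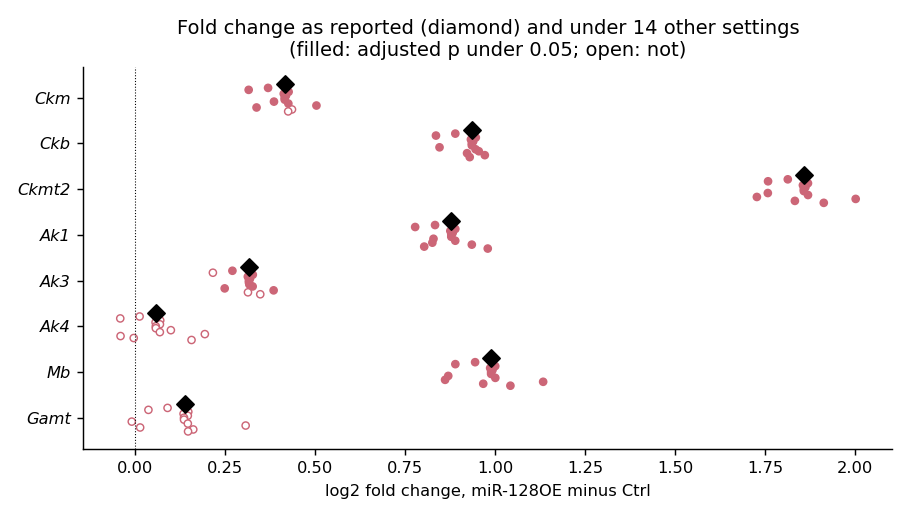
Log2 fold change of each of the 8 genes as reported (black diamonds) and under 14 other settings (circles, filled where the adjusted p was under 0.05), on the horizontal axis. *Ckmt2*, *Ckb*, *Ak1* and *Mb* stay filled throughout, *Ckm* and *Ak3* have open circles, and *Ak4* and *Gamt* are open throughout.

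Across 10 other scalings, filters, tests and gene selections, the log2 fold change ran from 1.76 to 1.87 for *Ckmt2*, from 0.84 to 0.95 for *Ckb*, from 0.78 to 0.89 for *Ak1* and from 0.87 to 1.00 for *Mb*, and all stayed past the threshold. With 1 library left out in turn, the ranges were 1.73 to 2.0, 0.92 to 0.97, 0.80 to 0.98 and 0.86 to 1.13, again all past the threshold, with highest adjusted p-values of 0.000132, 0.00176, 0.00542 and 0.00637. In those settings the lone library of a group was assumed to vary like the others. *Ckm* ran from 0.32 to 0.43 in the first 10 settings and passed in each.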

How the data were processed

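Reads of P7 heart libraries were filtered for quality, aligned to mm10 with TopHat2 and counted on known genes with Bioconductor packages by the authors, who deposited raw counts per gene for 4 libraries. The gene models, the use of strand and the treatment of reads with several matches are not given in the sources used here. Counts were analyzed with edgeR 4.0.16 in R 4.3.3 (filterByExpr with a minimum count of 10, TMM factors, quasi-likelihood test, Benjamini-Hochberg adjustment over 14266 genes, threshold 0.05). Standard errors were derived from each gene's F statistic (fold change on the log2 scale over the root of F), and 95% intervals from the same error. The biological coefficient of variation was 8.78% and the prior degrees of freedom were 7.44. A floor of 3 counts was taken per library (0.214 to 0.360 CPM), which covers counting error only, since reads from PCR are not independent molecules. The counts of both libraries of a group differed by more than counting noise (chi-square per degree of freedom 9.91 in Ctrl and 4.82 in miR-128OE), so each was counted as 1 sample, although this does not show that they came from separate animals.

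Of 24454 Entrez identifiers, 24381 were matched to a symbol and 21327 to GENCODE M21 (GRCm38), which gave coordinates, merged exon lengths, coding lengths and 3′UTRs. miRNA and promoter sequences come from RefSeq. All 8 genes matched in each source. Ratios were tested with scipy 1.17.1, and profiles used a prior count of 2.

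The 8 genes and the lists (creatine supply, adenylate kinases, other nucleotide kinases, mitochondrial passage, AMP use, globins, and markers of red cells, CMs, skeletal muscle, fibroblasts, endothelium, smooth muscle and pericytes, macrophages, nerve and Schwann cells, and brown fat) were chosen with earlier results of these data known. All 8 genes and their family members were named, except for 1 gene that is not reported here, and from other lists up to 3 genes with the smallest p-value plus those passing against the main direction. Marker lists are given by counts and summed levels, with up to 3 genes of the highest level. *Ryr2*, *Ttn*, *Actn2*, *Myl3*, *Pln*, *Pecam1*, *Cdh5*, *Emcn*, *Acta2*, *Rgs5*, *Myh11*, *Tnni2*, *Myod1*, *Myh8*, *Neb*, the adult myosins, *Ucp1*, *Alas2* and *Slc25a4* were named after their values were seen. Alternatives were other scalings, filters and thresholds, DESeq2 1.42.0, edgeR's likelihood ratio and exact tests, a loess offset for GC content and length (span 0.5), autosomal genes alone, and each library left out. Coding length was added after the data were seen. Hearts at P1 and P28 were not analysed here.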

Additional observations from a re-analysis of the deposited data

How the results depend on the processing

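No paired analysis was possible because the labels give the libraries no replicate numbers, and those used here only follow the order of the samples. The number of genes called was 4490 in all, 2314 at an adjusted p under 0.01 and between 1564 (without WH9) and 5038 (without WH7) with 1 library left out; DESeq2 called 3124. Of the 8 genes, 5 were called with total counts, 5 at an adjusted p under 0.01, 4 without WH9 or WH10 and 6 in every other setting. *Ckm* ran from 0.34 to 0.50 on the log2 scale with 1 library left out and missed the threshold without WH9 (0.44, edgeR adjusted p = 0.0882) and without WH10 (0.43, edgeR adjusted p = 0.0771). *Ak3* ran from 0.25 to 0.39, missed it without either of these libraries, and missed it with total counts (0.22, edgeR adjusted p = 0.0711). Without WH7 or WH8 both passed, and the cause of these losses was not tested. *Ak4* changed sign with total counts (−0.040) and ran from −0.040 to 0.19 with 1 library left out, and *Gamt* changed sign with the GC and length offset (−0.0083). *Gatm* ran from −0.37 to 0.17 and *Cygb* from −0.139 to 0.108 with 1 library left out. None of these 4 passed the test in any setting. The log2 difference of the *Ckm* to *Ckb* ratio ran from −0.58 to −0.45 with 1 library left out and was −0.52 with 0.5 added to each count. Gene length cancels in this difference. Upper-quartile factors gave 1980 genes higher and 2499 lower. Depth limits *Ak4*, *Gamt* and *Ckmt1*, whose intervals include changes in either direction.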
